A study of Mus musculus with 4 samples.

Results

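The genes described here were the aggrecanases Adamts1, Adamts4, Adamts5, Adamts9 and Adamts15 and the 4 tissue inhibitors of metalloproteinases, Timp1, Timp2, Timp3 and Timp4. They were chosen by name, as secreted proteinases of the ADAMTS family that can cut aggrecan (Adamts8, also able to, was not among them) and the inhibitors that bind metalloproteinases, and are 9 of the 37042 genes or unnamed transcripts on the array. They were read by 11 of 55619 probes, 6 for aggrecanases and 5 for TIMPs. Primary chondrocytes were taken from C57BL/6J mice, 6 days old, of the genotypes Rela fl/fl (control) and Prrx1-Cre; Rela fl/fl (cKO), which were littermates and are called control and cKO-labelled below. Both genotypes carried the floxed Rela allele. Rela encodes the p65 subunit of NF-κB, and Prrx1-Cre is a transgene known to be active in limb bud mesenchyme, from which limb cartilage forms. Cells were grown for 3 days with 10 ng ml−1 TNF or without it, and RNA of each of the 4 combinations was labelled with 1 dye and hybridised to 1 Agilent array. With 1 array per condition no difference has a replicate check and no test between conditions was run. How many mice were pooled for an array is not given in the sources used here.

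Aggrecan is the large proteoglycan that gives cartilage its resistance to compression, and aggrecanases release its charged part by cutting its core protein. Adamts5 and Adamts4 are the main aggrecanases of cartilage, and loss of Adamts5 protects mouse joints from cartilage breakdown. TIMPs block the active site of metalloproteinases, and of the 4 members Timp3 is known as the strongest inhibitor of Adamts4 and Adamts5. TNF is an inflammatory cytokine that drives cartilage breakdown in arthritis, in large part through NF-κB.

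The values below are signals, meaning the deposited intensity of a spot divided by the 75th percentile of its array, so that a signal of 1 is that percentile. Differences are given on the log2 scale, and a limit of 2-fold was used. Between 50.9% and 58.1% of probes were well above background on an array. A gene enters a comparison when at least 1 of its 2 arrays was well above background, and a signal that was not is taken at its own value or at the lowest such signal of its array, whichever is higher, which makes the difference a bound. Probes spotted 10 times gave the technical SD of a log2 difference between 2 arrays, which was 0.211 for signals under 1, 0.0899 for signals of 1 to 10 and 0.0765 for signals of 10 or more. This SD leaves out the spread between cultures. The arrays also carried patches of spots that were bright on 1 array only, which covered from 1.04% of spots on the cKO-labelled array with TNF to 10.7% on the array of control cells without TNF. Spots of the members in a patch are named below, and the part of the patches in their values was not tested.

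The Rela probe was not lower on the cKO-labelled arrays. Its signal was 28.4 and 34.9 in control cells without and with TNF, and 34.0 and 40.2 on the cKO-labelled arrays. Where this probe lies relative to the deleted exons is not given in the sources used here, so it does not check the label. All 8 chondrocyte markers were well above background on all 4 arrays, and their summed signal was 1470 and 1420 in control cells without and with TNF and 1250 and 1260 on the cKO-labelled arrays. Of the 5 leukocyte markers on the array, 4 were above background throughout with a summed signal of 3.78 to 4.24, and Ptprc was so on none. The endothelial markers summed to 17.7 to 20.7, of which Kdr alone gave 17.5 to 20.5, with Cdh5 and Tie1 above background on none. The muscle markers summed to 1.74 to 2.70, of which Acta1 gave 1.71 to 2.66, with Myod1 and Myog above background on none. The fibroblast-like markers, all 5 above background on all arrays, summed to 565 to 649. Xist was well above background on both control arrays and on neither cKO-labelled array. The Y-linked Ddx3y was well above background on all 4 arrays, at 1.31 and 1.30 in control cells without and with TNF. It was higher by 1.49 and 1.70 on the cKO-labelled arrays. Control cells thus gave both Xist and a Y-linked transcript, so the sex make-up of the cells and the genotype label cannot be told apart.

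Across the 4 conditions, 1 of the 7 members compared in both genotypes, Timp1, was higher with TNF by more than 2 technical SDs in each, against 4.12% of 22355 genes. Timp1 was 1.47-fold higher with TNF in control cells and 1.37-fold higher on the cKO-labelled arrays. Adamts4 was higher with TNF in control cells, by 0.47, and Adamts9 and Adamts5 were lower with TNF on the cKO-labelled arrays. With another background correction (normexp), Adamts4 was at 0.31 and Adamts5 at -0.39, both within 2 technical SDs. With spots in patches left out, the values of Timp1 and Adamts4 in control cells and of Adamts9 on the cKO-labelled arrays were lost. The only difference past 2-fold was that of Adamts15, which rested on 1 bright spot.

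**Figure D1:**
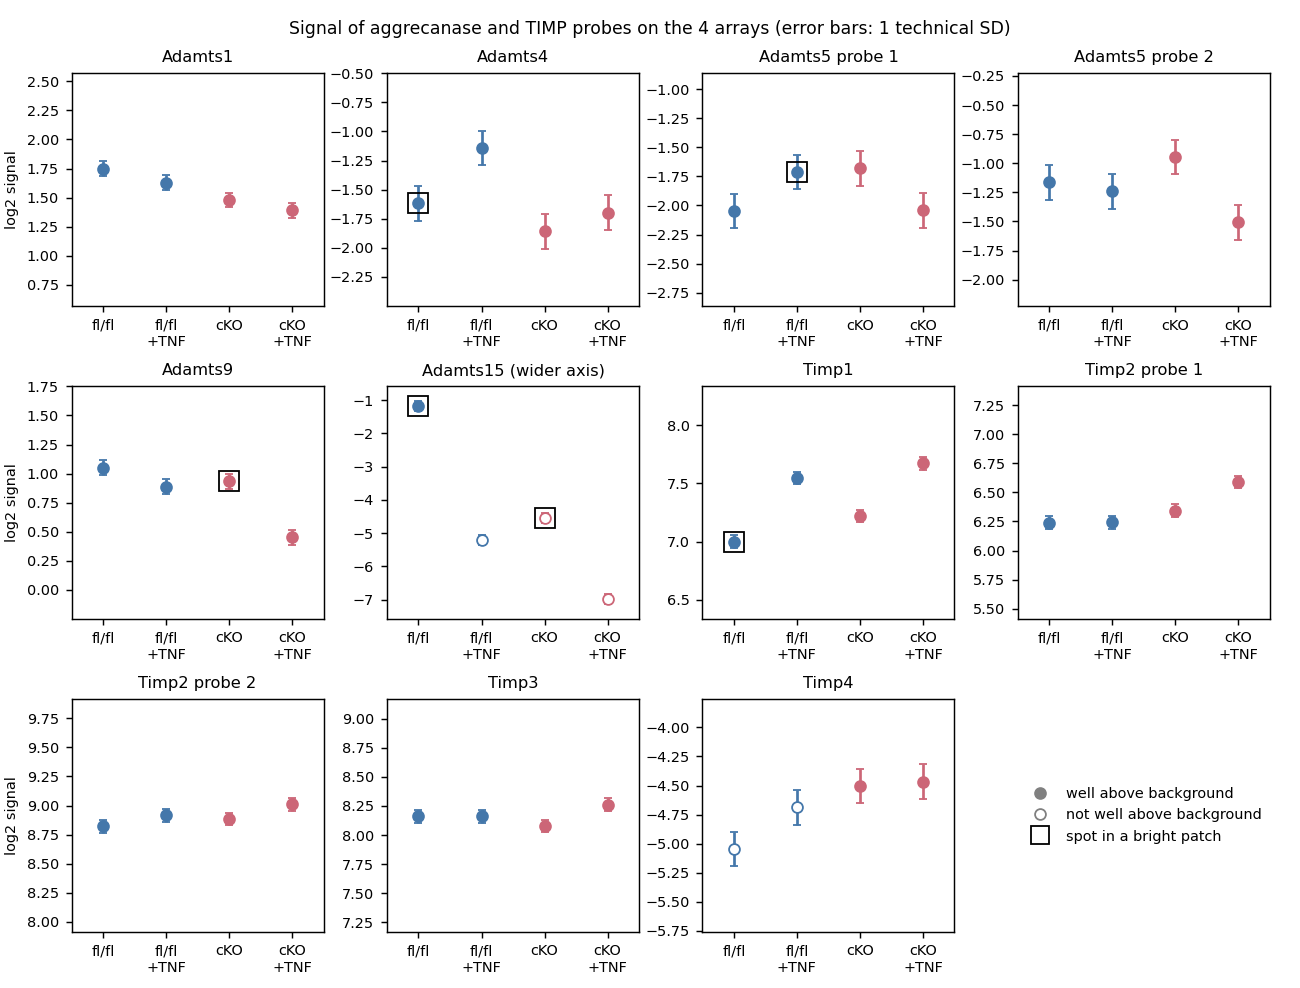
Log2 signal of each of the 11 probes on the 4 arrays, with blue for Rela fl/fl and red for the cKO-labelled arrays. Each panel spans 2 log2 units except that of Adamts15, which spans 7, and bars are 1 technical SD of a single array. Open circles were not well above background, and squares mark spots in a bright patch. Timp1 lies higher on both arrays with TNF, and Adamts15 is above background on 1 array only.

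In the comparison of TNF in control cells, 1 of the 8 members with a value was past 2-fold, against 6.66% of the 23406 genes compared. Higher by over 2 technical SDs were 2 members, Adamts4 and Timp1, against 11.7% of genes. Lower by as much was 1 member, Adamts15, against 11.3% of genes. On the cKO-labelled arrays, 0 of 8 members were past 2-fold with TNF, against 5.03% of 24902 genes. There, 2 members were higher by over 2 technical SDs, Timp1 and Timp3, against 17.7% of genes, and 2 were lower, Adamts5 and Adamts9, against 13.5%. The median difference with TNF was -0.12 over the aggrecanases and 0.09 over the TIMPs in control cells, where that of all genes was 0.01. Of 8 chondrocyte markers, 4 were lower and 0 higher by over 2 technical SDs there, with a median of -0.17. For TNF on the cKO-labelled arrays 2 of these markers were lower and 1 higher, with a median of 0.0. The part of these markers in the members' values was not tested. On the cKO-labelled arrays the medians were -0.28 over the 4 aggrecanases with a value and 0.16 over the TIMPs, with 0.06 for all genes. The aggrecanase median there was -0.09 with spots in patches left out and -0.47 with no filter on background, and the TIMP median was 0.06 without scaling and 0.05 in the authors' value table, where that of all genes was -0.05.

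**Figure D2:**
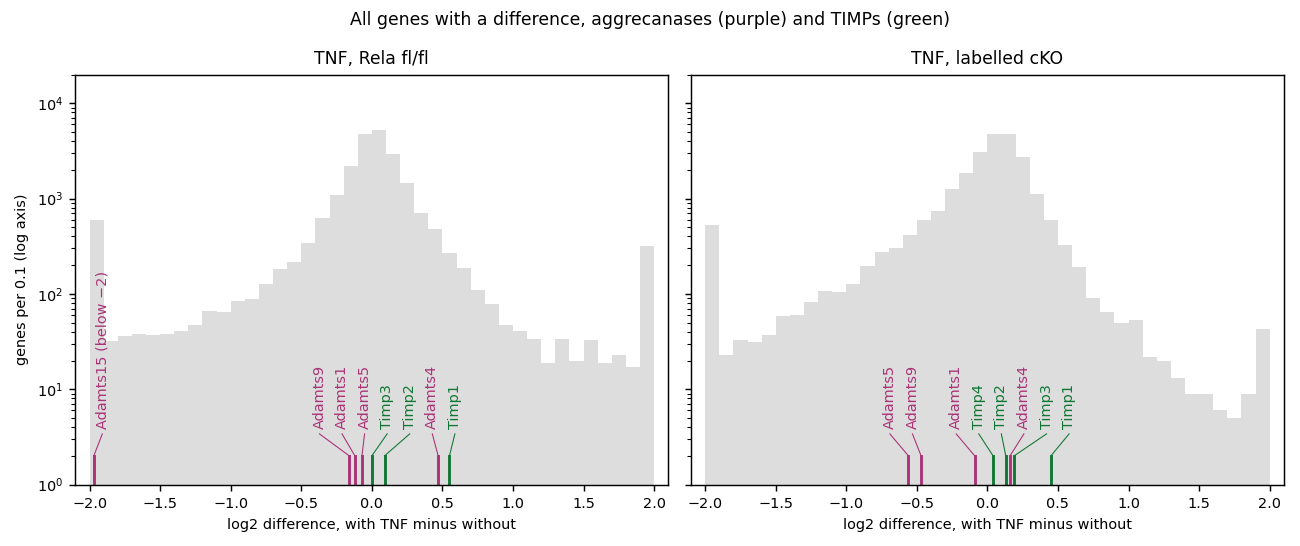
Number of genes per 0.1 of log2 difference with TNF, on a log axis, in control cells and on the cKO-labelled arrays. Coloured ticks mark the aggrecanases and TIMPs that had a value. Differences beyond 2 in either direction are gathered in the end bars. Except for Adamts15, the members lie between -0.16 and 0.55 in control cells and between -0.56 and 0.45 on the cKO-labelled arrays.

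Adamts5 was read by 2 probes, both for NM_011782 and both well above background on all arrays. The brighter of them, A_55_P1970826 (probe 2 in the plots), gave a signal of 0.446 in control cells without TNF and 0.423 with it, and 0.519 and 0.352 on the cKO-labelled arrays without and with TNF. The cKO-labelled array with TNF was thus the lowest and that without TNF the highest. With TNF the signal differed by -0.07 in control cells, less than 1 technical SD, and by -0.56 on the cKO-labelled arrays, past 2 technical SDs (0.422), but with normexp background correction, another way to remove background, the second value was -0.39, within them. The other probe, A_55_P1956918, gave 0.242 and 0.305 in control cells and 0.312 and 0.243 on the cKO-labelled arrays. Its differences with TNF were 0.34 and -0.36, both within 2 technical SDs (the second was past them without scaling, at -0.46, and in the authors' value table, at -0.47), and its spot on the array of control cells with TNF lay in a bright patch. The probes therefore differed on the direction in control cells and were both lower with TNF on the cKO-labelled arrays. The effect of TNF was lower on the cKO-labelled arrays than in control cells by 0.49 in the brighter probe and by 0.70 in the other, of which the second was past the 2 technical SDs (0.597) of such a difference of differences. Without scaling the brighter probe was past it too (-0.60). The difference of the other probe was within the limit with quantile normalization (-0.58) and normexp (-0.47), and had no value with spots in patches left out.

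Adamts4 (NM_172845) gave a signal of 0.326 in control cells without TNF and 0.453 with it. On the cKO-labelled arrays it was 0.276 and 0.308. The array of control cells with TNF was the highest. The difference with TNF was 0.47 in control cells, past 2 technical SDs, and 0.16 on the cKO-labelled arrays, within 1. The first was 0.31 with normexp, within 2 technical SDs, and had no value with spots in patches left out. Among the 11572 other genes with a mean signal under 1 and a value, 9.60% were higher by as much or more with TNF in control cells. The effects in the 2 genotypes differed by -0.32, within 2 technical SDs. The spot of Adamts4 in control cells without TNF lay at the edge of what was counted as a patch, with 3 bright neighbours.

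Adamts1 (NM_009621), which cuts versican as well as aggrecan, had a signal of 3.36 and 3.09 in control cells without and with TNF. The signals on the cKO-labelled arrays were 2.79 and 2.62. None of its spots lay in a patch, and both cKO-labelled arrays were below both arrays of control cells. Its differences with TNF were -0.12 in control cells and -0.09 on the cKO-labelled arrays, within 2 technical SDs (0.180), the second at -0.20 without scaling or in the authors' value table. Adamts9 (NM_175314), another proteinase for aggrecan and versican, gave 2.07 and 1.85 in control cells and 1.91 and 1.37 on the cKO-labelled arrays. The cKO-labelled array with TNF was the lowest. Its difference with TNF in control cells was -0.16, within 2 technical SDs, and -0.19 to -0.20, past them, with normexp, quantile normalization or the authors' value table. It fell by 0.47 with TNF on the cKO-labelled arrays, where 1.51% of the 7266 other genes with a signal of 1 to 10 were lower by as much or more. The effect of TNF differed between the genotypes by -0.31, past the 2 technical SDs of such a value (0.254), but was -0.25 with normexp, within them, and had no value with spots in patches left out. The spot of Adamts9 on the cKO-labelled array without TNF lay in a patch, with 14 bright neighbours.

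Adamts15 (NM_001024139), an aggrecanase of cartilage and muscle, was well above background on 1 array. Its signal was 0.442 in control cells without TNF, 0.0272 with TNF, and 0.0429 and 0.00794 on the cKO-labelled arrays without and with TNF. The lowest signal well above background was 0.0369 on the array of control cells with TNF and 0.0358 on the cKO-labelled array without TNF. Against the first of these, and against its own higher signal on the cKO-labelled array, Adamts15 was at least 12.0-fold lower with TNF in control cells and at least 10.3-fold lower without TNF on the cKO-labelled array. With normexp background correction these log2 differences were -1.83 and -1.73, in place of -3.58 and -3.36, so the bounds hold only for the background correction of the deposited intensity. The other comparisons give no fold, since neither array was above background. The bright spot lay in a patch: of the 42 transcript spots around it within 5 rows and 2 columns, 8 (19.0%) were at least 2-fold brighter on this array than on each of the other 3, against 2.09% of all spots. It stood next to spots that read other transcripts and were bright on the same array. On the cKO-labelled array without TNF, 4 of these 42 spots (9.52%) were bright, and on the arrays with TNF 0 were. With spots in patches left out, 0 members were past 2-fold in these comparisons.

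**Figure D3:**
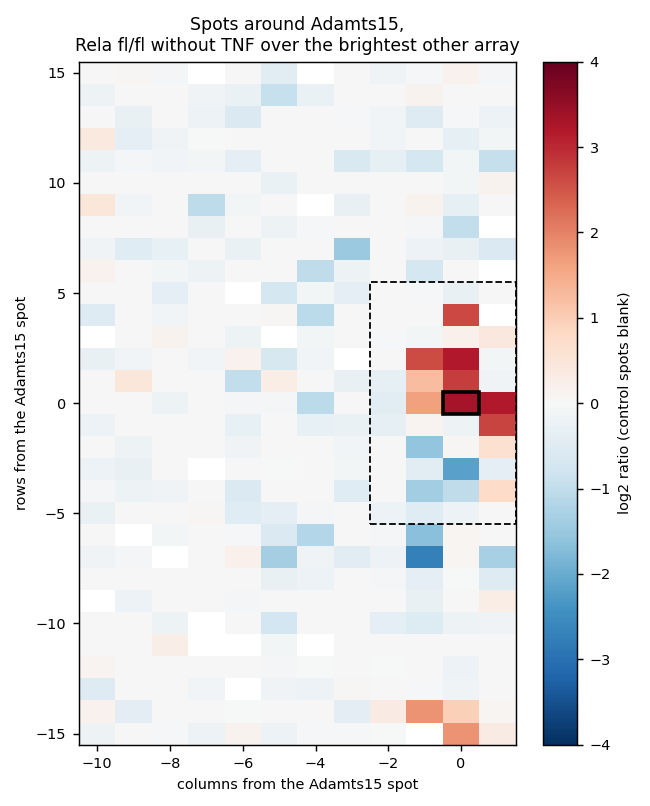
Log2 ratio of each spot on the array of control cells without TNF over the brightest of the other 3 arrays, by distance in rows and columns from the Adamts15 spot (solid box), on a scale that ends at 4 in both directions. The dashed box holds the neighbours that were counted. The Adamts15 spot joins a run of red spots near the edge of the array, which are among the 8 of 42 neighbours that were bright.

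Timp1 (NM_001044384), a secreted inhibitor of most matrix metalloproteinases but a weak one of aggrecanases, gave a signal of 128 in control cells without TNF and 187 with it. On the cKO-labelled arrays, the signals were 149 and 204. Both arrays with TNF were above both arrays without it. The differences with TNF were 0.55 and 0.45, past 2 technical SDs (0.153), and they differed from each other by -0.10, within 2 technical SDs (0.216), but by -0.24, past them, with quantile normalization. Of the 3863 other genes with a signal of 10 or more, 1.22% rose by as much or more in control cells and 1.27% on the cKO-labelled arrays. The spot of Timp1 in control cells without TNF, the lowest of the 4, lay in a patch with 13 bright neighbours, and without patches its difference with TNF in control cells and its genotype difference without TNF had no value.

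Timp2 (NM_011594), which takes part in the activation of Mmp2 as well as inhibiting metalloproteinases, was read by 2 probes. The brighter, A_52_P540219 (probe 2 in the plots), gave 452 and 483 in control cells without and with TNF and 473 and 516 on the cKO-labelled arrays. All its differences, from 0.06 to 0.13, were within 2 technical SDs. The other, A_65_P12392, gave 75.5 and 75.7 in control cells and 81.1 and 96.2 on the cKO-labelled arrays, so that the cKO-labelled array with TNF stood highest. Its differences with TNF were 0.00 and 0.24, the second past 2 technical SDs, unlike the brighter probe. It was within them with quantile normalization (0.08), without scaling (0.14) and in the authors' value table (0.14). Timp3 (NM_011595), the inhibitor that binds to the matrix, gave 286 on both arrays of control cells and 270 and 307 on the cKO-labelled arrays. Its differences with TNF were -0.00 and 0.19. The last value was past 2 technical SDs, but the median of all genes with a signal of 10 or more was 0.14 in the same comparison, and the value of Timp3 was 0.04 to 0.09 without scaling, with quantile normalization or in the authors' value table. The values of Timp1 under these settings were 0.29 to 0.35, still past 2 technical SDs. Timp4 (NM_080639), known mainly from heart and brain, gave 0.0303 and 0.0388 in control cells, which was not well above background. On the cKO-labelled arrays it gave 0.0441 and 0.0452, just above the lowest signals well above background there (0.0358 and 0.0296), and its difference with TNF was 0.04.

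**Figure D4:**
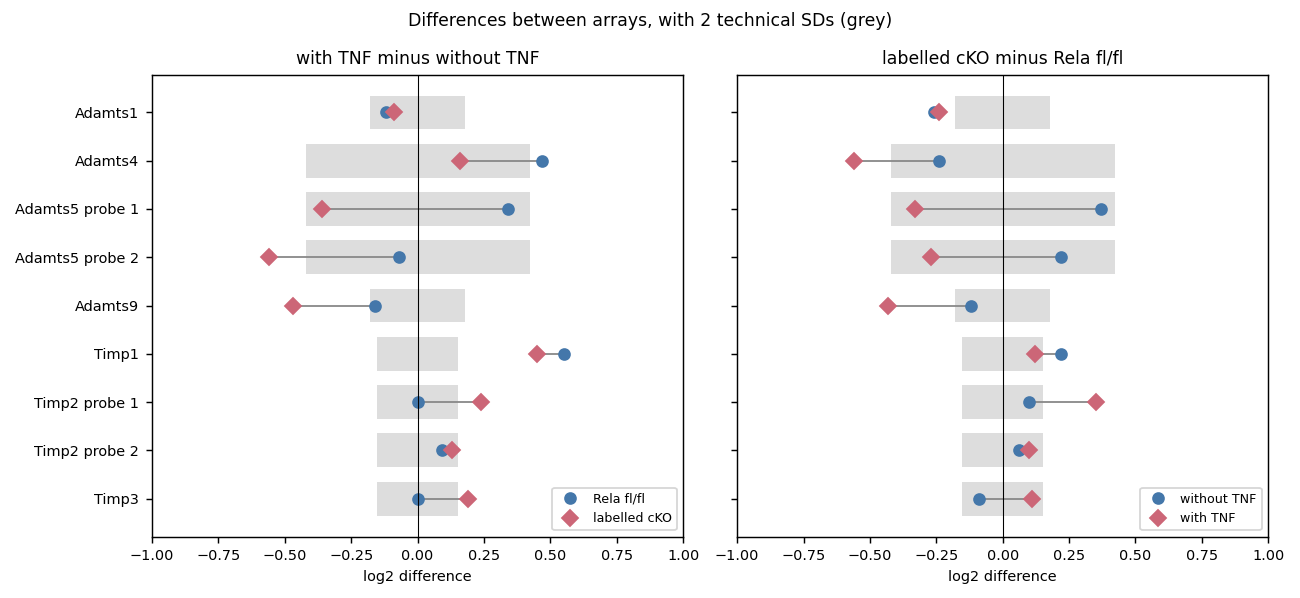
Log2 differences of the probes well above background on all 4 arrays, with TNF minus without it in each genotype (left) and labelled cKO minus Rela fl/fl without and with TNF (right). Grey bars reach 2 technical SDs to either side of 0. For Timp1 both symbols of the left panel lie outside the grey bar on the higher side, and for Adamts1 both symbols of the right panel lie outside it on the lower side.

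Timp1, whose signal was higher with TNF, and Timp2 and Timp3, which were bright without a difference of that size in control cells, are shown by the 250 bases before their start sites, from RefSeq in the build GRCm38.p6. Capitals mark matches to GGGNNNNNCC, a short form of the κB site that NF-κB binds, searched on both strands, with overlapping matches run together. The regions are chrX:20869916-20870165 on the plus strand for Timp1, chr11:118355412-118355661 on the minus strand for Timp2 and chr10:86300162-86300411 on the plus strand for Timp3.
Timp1: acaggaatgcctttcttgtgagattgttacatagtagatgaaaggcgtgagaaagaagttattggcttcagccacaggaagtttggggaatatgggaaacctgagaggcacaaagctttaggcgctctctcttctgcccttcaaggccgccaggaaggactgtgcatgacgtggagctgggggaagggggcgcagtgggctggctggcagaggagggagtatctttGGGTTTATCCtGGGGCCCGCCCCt
Timp2: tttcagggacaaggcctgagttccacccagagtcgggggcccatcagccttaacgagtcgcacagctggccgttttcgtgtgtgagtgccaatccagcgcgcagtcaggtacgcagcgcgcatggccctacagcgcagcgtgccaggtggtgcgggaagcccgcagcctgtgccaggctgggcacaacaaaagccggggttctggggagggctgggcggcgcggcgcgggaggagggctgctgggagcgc
Timp3: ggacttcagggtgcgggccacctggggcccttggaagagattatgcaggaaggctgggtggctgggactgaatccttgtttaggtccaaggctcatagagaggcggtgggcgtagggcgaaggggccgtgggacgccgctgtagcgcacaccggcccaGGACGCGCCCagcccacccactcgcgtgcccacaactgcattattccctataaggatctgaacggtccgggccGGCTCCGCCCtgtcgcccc
The match began at 4 positions for Timp1, 2 for Timp3 and 0 for Timp2. Adamts1, Adamts9 and Timp4 had 1 each, and the table of promoters used here held 6 of the 9 members. Of 32851 promoters, 45.8% hold the pattern in the same window, so a match is common. The AP-1 site TGANTCA and the variant TGAGTAA were in none of the 6, against 6.75% and 2.25% of all promoters. The GC content of the 6 windows ran from 53.6% to 71.2%, with a median of 52.4% over all promoters. A match is a string of letters and says nothing of binding in these cells.

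Between genotypes, 1 of the 9 members compared was past 2-fold without TNF, against 7.67% of 24276 genes, and this was the Adamts15 spot in the patch. Timp4 entered this comparison, as 1 of its arrays was above background, but gave no fold, as did some of the 24276 genes. Higher on the cKO-labelled array by over 2 technical SDs was 1 member, Timp1, against 15.2% of genes, and lower were 2, Adamts1 and Adamts15, against 13.8%. With TNF, 0 of 8 members were past 2-fold, against 4.25% of 24511 genes. There, by the brightest probe of each gene, 0 members were higher by over 2 technical SDs, against 18.0% of genes, and 3 were lower, Adamts1, Adamts4 and Adamts9, against 11.7%. The dimmer probe of Timp2 was higher by more than this limit, at 0.35, and by 0.26 to 0.39 under the alternative settings. The median over the aggrecanases was -0.24 without TNF and -0.35 with it, where those of all genes were 0.01 and 0.06, and the TIMPs had 0.06, over the 3 with a difference, and 0.11. With spots in patches left out, the aggrecanase median without TNF was -0.02.

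Adamts1 was lower on the cKO-labelled arrays by 0.26 without TNF and by 0.24 with it, and of the genes with a signal of 1 to 10, 7.93% and 8.22% were lower by as much or more. Adamts4 differed by -0.24 without TNF and -0.56 with TNF (-0.41 with normexp, within 2 technical SDs), and Adamts9 by -0.12 (-0.19 with normexp, past 2 technical SDs) and -0.43. Adamts5 went from 0.22 without TNF to -0.27 with it in the brighter probe, and from 0.37 to -0.33 in the other, all within 2 technical SDs. Timp1 differed by 0.22 and 0.12, Timp3 by -0.09 and 0.11, and the probes of Timp2 by 0.06 and 0.10 and by 0.10 and 0.35. Timp4 was higher by 0.22 with TNF, within 2 technical SDs (0.422) and against a signal not well above background. This was 0.16 without scaling or in the authors' value table. Without TNF it gave no fold. Chondrocyte markers moved in the same comparison: 7 of the 8 were lower by over 2 technical SDs on the cKO-labelled array without TNF and 3 of the 8 with TNF, among them Acan, at -0.61 and -0.48, with medians of -0.31 and -0.15. Fibroblast-like markers moved as well, with 4 of the 5 lower by as much without TNF (median -0.20) and 4 of the 5 with TNF (median -0.28). Of all genes, 13.8% were lower by over 2 technical SDs without TNF and 11.7% with TNF. Muscle markers moved the other way, with Acta1 higher by 0.54 and 0.53, Des above background on the cKO-labelled array with TNF only, and Myod1 and Myog above background on none. Single markers moved past 2-fold without TNF, with Thy1 at -1.59, Lyz2 at -2.11 and Adgre1 at 2.87, the last pair from spots in patches. In such cultures, fewer cells of a type and less RNA per cell cannot be told apart, and the part of these marker lists and of sex in the members' values was not tested.

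The response of the cells to TNF is described here by a list that was chosen with earlier results of these data known. Its counts therefore do not test the response. Of 11 known TNF response genes, 8 were past 2-fold higher in control cells with a median of 1.78, where 560 of 23406 genes were. On the cKO-labelled arrays 4 of the 9 with a value were, with a median of 0.87, where 189 of 24902 genes were. These medians are over unlike sets. Il6 and Saa3 were not well above background on either cKO-labelled array and gave no value there. In control cells they were higher by at least 2.88 and 7.48. With TNF, 7 of the 11 were past 2-fold lower on the cKO-labelled array, where 757 of 24511 genes were. Ccl2, a chemokine, went from 0.920 to 29.8 in control cells and from 0.916 to 8.23 on the cKO-labelled arrays. Of 9 genes for metalloproteinases that TIMPs bind and for Reck, an inhibitor on the cell surface, 8 had a value for TNF in control cells. Past 2-fold higher there were 2 of the 8, where 560 of 23406 genes were. Mmp3 (stromelysin 1) went from 0.616 to 15.3 in control cells and from 0.249 to 1.47 on the cKO-labelled arrays. Mmp13, the main collagenase of cartilage, went from 6.08 to 12.9 in control cells, but was 12.5 and 11.5 on the cKO-labelled arrays without and with TNF. The aggrecanases showed no rise of this size.

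The substrates of the aggrecanases were read by 13 genes with their partners, of which 12 had a value. Acan, aggrecan itself, gave 100 and 81.9 in control cells without and with TNF and 66.0 and 58.8 on the cKO-labelled arrays. Its differences with TNF, -0.30 and -0.17, were past 2 technical SDs (0.153) in both genotypes, and its spot on the cKO-labelled array with TNF lay in a patch. Vcan, the large proteoglycan versican, gave 1.35 and 1.91 in control cells and 1.07 and 0.769 on the cKO-labelled arrays, and was past 2-fold lower on the cKO-labelled array with TNF (-1.31). Cd44, a hyaluronan receptor, gave 4.58 and 6.33 in control cells and 7.03 and 14.4 on the cKO-labelled arrays. It was past 2-fold higher with TNF on the latter (1.03), and past 2-fold higher between genotypes with TNF (1.18). Hapln3, a link protein, was past 2-fold lower with TNF in control cells (-1.03), but its spots on both of those arrays lay in patches. Hapln1, which ties aggrecan to hyaluronan, differed by -0.43 with TNF in control cells. In all, 3 of the 12 were higher and 6 lower by over 2 technical SDs with TNF in control cells, against 11.7% and 11.3% of all genes. Between genotypes, 1 of the 12 was higher and 7 lower without TNF, against 15.2% and 13.8% of all genes. With TNF, 1 was higher and 6 lower, against 18.0% and 11.7%.

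Other members of the ADAMTS family were mostly dim. Of 21 listed, 19 were on the array, and 9 had a value for TNF in control cells, of which 0 were past 2-fold, against 6.66% of all genes, and 3 higher by over 2 technical SDs, against 11.7%. Adamts7, which cuts the cartilage protein Comp, gave 0.0722 and 0.137 in control cells without and with TNF, a difference of 0.93. Adamts14, a procollagen proteinase, gave 5.09 and 6.10 in control cells and 4.85 and 4.94 on the cKO-labelled arrays. On the cKO-labelled arrays 11 had a value, and Adamtsl2, a family member without a catalytic domain, was past 2-fold lower with TNF from a spot in a patch. By over 2 technical SDs, 0 of these 11 were higher and 4 lower with TNF, against 17.7% and 13.5% of all genes. Between genotypes with TNF, 1 of 10 was higher and 4 lower, against 18.0% and 11.7%. Of 9 genes for the activation and uptake of aggrecanases, 0 were past 2-fold in any comparison, where 4.25% to 7.67% of all genes were. Sdc4, a syndecan that binds Adamts5, was higher with TNF by 0.44 and 0.48 in control cells and on the cKO-labelled arrays, and Pcsk6, a proprotein convertase that activates aggrecanases, differed by -0.45 and -0.09. Of 11 transcription factors for these genes, 1 was past 2-fold higher with TNF in control cells, Relb (1.02), itself an NF-κB subunit, against 6.66% of all genes. Epas1, which encodes Hif2a, gave 12.8 and 13.5 in control cells and 12.6 and 12.9 on the cKO-labelled arrays.

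By profile over the 4 arrays, among 13354 genes well above background on all of them, those nearest to Adamts4 were Oxsm, Prrg1 and Fbln2, at distances of 0.0701, 0.0725 and 0.0804 on the log2 scale. The profile of Adamts15, the member of largest range, was below background on 3 of the 4 arrays, so no genes of like profile are given for it. For Timp1, added after the values were seen, Arhgap18, H2-Eb1 and Rassf3 were nearest, at 0.0320 to 0.0640. A profile over 4 arrays is short, and genes of like profile share the same arrays and scaling.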

How the data were processed

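RNA of 4 cultures was measured on 4 Agilent 1-colour mouse arrays, 1 per condition. The authors deposited the processed intensity of each spot from Agilent Feature Extraction 10.10.1.1, which the software had corrected for background and for trends over the slide, and a value table that equals this intensity times 1 factor per array (1.77 to 1.83), whose basis is not stated. From the deposited intensity, log2 values were taken and the 75th percentile of each array (589 to 633) subtracted. Outlier spots (138 to 225 per array) were dropped, repeated spots were averaged per probe, and the brightest probe on average represented its gene. No spot was saturated. The number of arrays limits the precision. Unversioned accessions were named through RefSeq's annotation of GRCm38.p6 (20435 of 20809 NM accessions matched). The array files name mm9, so only the promoters, from RefSeq, have coordinates.

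The technical SD came from the probes with 10 spots that were well above background and not outliers at every spot, which were 173 to 215 per array and 33 to 106 per class and array. A spot lay in a patch when 3 or more of its 54 neighbours (up to 5 rows and 2 columns away) exceeded their brightest reading on any other array at least 2-fold, after log2 values under -4.5 had been set to that floor. This rule was taken from an earlier analysis that chose it with the data in view. All 9 members were to be named, with genes of the other lists where past 2-fold and up to 4 examples a list, and the 3 genes of nearest profile (Euclidean distance of centred log2 values) for the 2 members of largest range. The members and lists were chosen with earlier results of these data known. The classes of the technical SD and the examples Ccl2, Acan and Epas1 were chosen after the values were seen. Alternatives were no scaling, quantile normalization, the authors' value table, normexp (offset 50) on the median intensity, both arrays above background, no filter, limits of 1.5-fold and 3-fold, the mean over probes, and patches left out. The counting was tested on simulated data. Python 3.11.15 with numpy 2.4.6, pandas 2.3.3 and matplotlib 3.10.9 and R 4.3.3 with limma 3.58.1 were used.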

Additional observations from a re-analysis of the deposited data

Results flagged for a closer look

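Differences of opposite direction in the 2 genotypes or treatments, each larger than 1 technical SD, were found for 2 members. Adamts5 probe A_55_P1956918 was 0.34 higher with TNF in control cells and lower (-0.36) on the cKO-labelled arrays, and its genotype difference was 0.37 without TNF and -0.33 with TNF. Adamts5 probe A_55_P1970826 had genotype differences of 0.22 and -0.27 without and with TNF. Timp3 had genotype differences of -0.09 and 0.11, which under quantile normalization was 0.02 with TNF. With 1 array per condition, none of these differences between groups was tested.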

How the results depend on the processing

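The count of members past 2-fold was the same in 34 of 40 combinations of comparison and alternative. When both arrays had to be above background, or spots in patches were left out, it was 0 for TNF in control cells and 0 for genotype without TNF, since Adamts15 drops out by construction. With no filter and no raised value it was 1 for TNF on the cKO-labelled arrays and 1 for genotype with TNF. Of 370 other values, 344 moved by less than 1 technical SD, 26 by more and 0 changed direction past it. Without scaling, the median of all genes with TNF on the cKO-labelled arrays was -0.05 in place of 0.06, and Adamts9 was at -0.57 there. The share of all genes past 2-fold with TNF in control cells was 6.66% as reported, 4.30% with normexp, 2.56% with both arrays above background, 10.0% with no filter and 1.31% with patches left out. For TNF on the cKO-labelled arrays these were 5.03%, 2.23%, 2.59%, 9.92% and 2.27%, for genotype without TNF 7.67%, 4.33%, 3.58%, 11.4% and 2.15%, and for genotype with TNF 4.25%, 2.04%, 2.14%, 9.87% and 2.05%. At limits of 1.5-fold and 3-fold the shares were 10.8% and 4.68%, 10.7% and 2.75%, and 13.5% and 4.75% in the first 3 comparisons, and for genotype with TNF 2471 and 578 of 24511 genes were past them, against 1042 at 2-fold. Of genes past 2-fold with TNF on the cKO-labelled arrays, 15.1% were higher, against 25.6% with quantile normalization, 36.8% with no filter and 28.6% with patches left out. For genotype with TNF the share was 27.4%, and 57.9% and 51.5% under the last 2 of these, and for genotype without TNF 45.7% and 59.8% with patches left out. No paired analysis was possible because the labels give no replicate numbers that could pair arrays, with 1 array per condition. An additive fit over the 4 arrays, with 1 residual degree of freedom, was left out. Signal over background limits Adamts15 and Timp4, and the spread between cultures is not known.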

Other observations

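Timp1, Timp3 and Timp4 each lie within a synapsin gene in the RefSeq table, Syn1, Syn3 and Syn2, and the host genes were dim on these arrays. The Syn1 probe gave 0.281 and 0.322 in control cells without and with TNF and 0.340 and 0.360 on the cKO-labelled arrays. Syn2 was not well above background on any array by either of its 2 probes. The Syn3 probes were well above background on cKO-labelled arrays only, at 0.118 and 0.0535 without TNF, of which the first lay in a patch. Adamts1 and Adamts5 are adjacent on chromosome 16, and Adamts15 lies next to Adamts8 on chromosome 9. Adamts8, another aggrecanase, gave 0.138 and 0.185 in control cells and 0.164 and 0.168 on the cKO-labelled arrays, well above background on all 4.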
